A study of Mus musculus with 2 samples.

Results

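The olfactory and vomeronasal receptor genes of the mouse were placed on chromatin loop and domain maps of HPC5, a haematopoietic progenitor line derived from bone marrow with wild-type Etv6 (Etv6+/+). Members were all RefSeq protein-coding genes whose symbols start with Olfr or Vmn on chromosomes 1 to 19, which gave 1454 of 20558 protein-coding genes. Of these, 1103 were Olfr, 229 Vmn1r and 122 Vmn2r genes. A further 4 such genes on unplaced or alternate scaffolds were left out. The set was selected on its low share of genes with an end in a loop anchor, measured over both loop lists. The maps came from Hi-C, in which fixed chromatin is cut and re-ligated so that sequence pairs report nuclear contacts, on 2 samples numbered as replicates 1 and 2. Both samples belong to 1 untreated group, so there is no condition to compare, and whether separate cultures gave them is not stated. The files hold positions and no expression values, so the identity of the cells could not be checked against marker genes.

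A loop here means 2 anchors in contact, each a bin of 5, 10 or 25 kb. On chromosomes 1 to 19 the medium-setting lists held 1249 loops in replicate 1 and 5590 in replicate 2. The domain lists held 3 and 332 domains. A gene was placed at an anchor if its start or its end fell inside, and counted as enclosed when it lay wholly between the inner edges of a loop's anchors. Read totals are not part of these lists, so depth is unknown, and read coverage over the receptor clusters was not analysed here. Ranges after percentages are 95% Wilson intervals for counting error alone, and neighbouring genes are not independent draws. Because the anchor share chose the set, the shares are descriptions without a test.

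Olfr genes encode odorant receptors, G protein-coupled receptors of the sensory neurons of the nose. Vmn1r and Vmn2r genes encode the receptor families of the vomeronasal organ, which detects pheromones. Both kinds lie in tandem clusters and are silent in most other tissues. In olfactory neurons a cell expresses a single odorant receptor gene, and enhancers bound by Lhx2, Ebf factors and Ldb1 gather from many chromosomes at the chosen gene.

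The start regions of 3 odorant receptor genes are given because their whole windows lay inside an anchor in both replicates, on either side of the beta-globin genes of chromosome 7. Each window is taken from RefSeq (GRCm38.p6) and runs 5′ to 3′ from 250 bases before to 50 bases after the annotated gene start. Capitals mark a TAATTA match, the letters that many homeodomain proteins bind. The windows are Olfr243 at chr7:103716346-103716645 on the plus strand, Olfr648 at chr7:104180357-104180656 on the minus strand and Olfr649 at chr7:104190156-104190455 on the minus strand.
Olfr243: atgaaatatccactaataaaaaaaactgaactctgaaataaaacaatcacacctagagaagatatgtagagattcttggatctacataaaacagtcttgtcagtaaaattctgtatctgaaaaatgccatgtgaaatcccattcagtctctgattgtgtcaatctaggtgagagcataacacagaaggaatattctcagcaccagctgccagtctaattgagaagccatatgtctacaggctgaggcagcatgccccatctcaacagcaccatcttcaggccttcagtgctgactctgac
Olfr648: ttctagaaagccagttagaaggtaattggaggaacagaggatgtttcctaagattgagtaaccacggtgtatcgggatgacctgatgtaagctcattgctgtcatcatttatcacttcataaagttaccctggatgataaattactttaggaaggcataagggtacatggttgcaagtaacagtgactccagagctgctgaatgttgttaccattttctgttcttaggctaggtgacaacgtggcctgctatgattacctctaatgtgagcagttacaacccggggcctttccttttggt
Olfr649: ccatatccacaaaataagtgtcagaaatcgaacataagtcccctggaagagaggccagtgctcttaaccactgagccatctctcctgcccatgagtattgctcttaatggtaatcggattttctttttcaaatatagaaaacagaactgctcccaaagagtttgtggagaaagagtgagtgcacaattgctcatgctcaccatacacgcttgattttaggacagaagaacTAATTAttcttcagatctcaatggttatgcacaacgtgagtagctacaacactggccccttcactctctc

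Few receptor genes had an end in a loop anchor. Over both lists 37 of 1454 did, which is 2.54% (1.85 to 3.49%), against 23.1% of all protein-coding genes tested on these chromosomes. By family the counts were 32 of 1103 Olfr genes (2.90%), 4 of 229 Vmn1r genes (1.75%) and 1 of 122 Vmn2r genes (0.82%). Their intervals overlapped, with upper bounds of 4.07% for Olfr and 4.50% for Vmn2r genes. In replicate 1 the count was 14 (0.963%), against 6.86% of all genes, and in replicate 2 it was 30 (2.06%), against 20.3%. The genes at an anchor in both replicates numbered 7. Receptor pseudogenes, which the member rule leaves out, gave 13 of 580 (2.24%, 1.31 to 3.80%), against 8.22% of 8821 other pseudogenes.

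**Figure D1:**
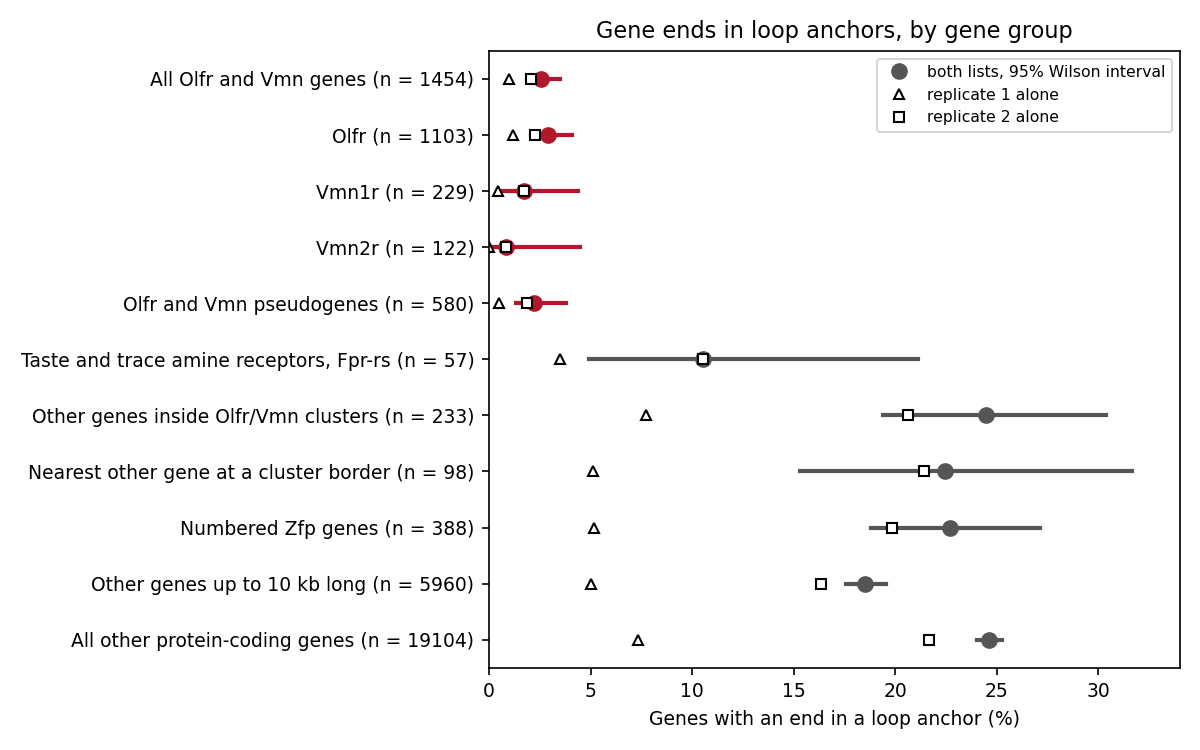
Share of genes with an end in a loop anchor (x axis, percent) for the receptor families and pseudogenes (red) and for other gene groups (grey). Large points with bars give both lists with the 95% Wilson interval, triangles replicate 1 and squares replicate 2. All receptor groups lie below 3% and all other protein-coding genes at 24.6%.

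Receptor genes are short, with a median annotated length of 0.951 kb, against 19.6 kb for other genes. Their models often hold the coding part alone: of 1092 receptor models under 1100 bp, 90.0% had a length that is a multiple of 3. Other genes of up to 10 kb were at an anchor in 18.5% of 5960 cases, and receptor genes of up to 10 kb in 2.43% of 1317. The median distance from a receptor gene to the nearest anchor was 283 kb, with quartiles of 106 and 674 kb. For other genes the median was 18.2 kb and the quartiles were 0 and 95.4 kb. Vmn1r genes lay farthest by median (386 kb), then Vmn2r (341 kb) and Olfr genes (260 kb), and their quartiles overlapped. Vmn2r47 on chromosome 7 was the farthest of all receptor genes, 2634 kb from an anchor.

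Pooled over the receptor clusters, the other genes inside them were at anchors about as often as genes elsewhere, but unevenly between clusters. With clusters defined as receptor genes joined over gaps of up to 500 kb, 1424 receptors fell into 50 clusters of 3 or more, and 30 into 23 groups of 1 or 2. Of the 30, 0 were at an anchor (interval up to 11.4%). The clusters spanned 54.6 Mb in all, with a median of 850 kb and 18 receptors. They also held 233 other protein-coding genes, of which 57 (24.5%, 19.4 to 30.4%) had an end in an anchor. Most of the 57 came from a few clusters, with 16 of 37 in Olfr1370 to Vmn1r223 and 10 of 24 in Olfr722 to Vmn2r89. Vmn1r72 to Vmn1r89 gave 8 of 19 and Olfr1417 to Olfr1505 gave 8 of 12. No other cluster gave more than 2, with 2 of 27 in Olfr543 to Olfr692 and 0 of 18 in Vmn1r91 to Vmn1r183. The nearest other gene on each side of a cluster was at an anchor in 22 of 98 cases (22.4%, 15.3 to 31.7%). Numbered Zfp genes, which encode zinc finger proteins and also lie in tandem clusters, gave 88 of 388 (22.7%, 18.8 to 27.1%). The wider set of other clustered family genes, used as an alternative background, gave a lower share of 15.2%. Taste receptors, trace amine receptors and Fpr-rs genes, the other chemoreceptor families, gave 6 of 57 (10.5%, 4.91 to 21.1%). The 6 were Tas2r137, Tas2r108 and Tas2r138, of the bitter taste family, on chromosome 6, and Taar6, Taar7a and Taar7b, trace amine receptors, on chromosome 10.

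Within the clusters, anchors lay mostly where receptors were interrupted by other genes. The 50 clusters held 120 anchor midpoints, or 2.20 per Mb, against 5.06 per Mb in all other sequence of the 19 chromosomes. Stretches of 3 or more receptors with no other protein-coding gene between them in gene order took up 42.2 Mb of the clusters and held 33 anchors (0.782 per Mb). The remaining 12.5 Mb held 87 anchors (6.98 per Mb) and 18.6 other genes per Mb. Replicate 1 gave 0.190 per Mb in the receptor-only stretches and 1.04 per Mb in the rest of the clusters. Replicate 2 gave 0.687 and 6.50 per Mb. Of the 120 anchors, 24 held receptor ends alone and 3 held ends of both a receptor and another gene. Another 41 held ends of other genes alone, and 52 held no protein-coding gene end. This split was not compared with anchors outside the clusters. The most were in the Olfr1417 to Olfr1505 cluster of chromosome 19, with 21, and in the Olfr543 to Olfr692 cluster of chromosome 7, with 14. In 24 of the 50 clusters no anchor overlapped the span.

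Anchor density changed at the cluster borders. It was 2.93 per Mb in the first 50 kb inside a border and 8.20 per Mb in the first 50 kb outside, and 9.0 per Mb over the first 100 kb outside. The density of other genes moved with it, at 1.67 per Mb in the first 50 kb inside and 16.6 per Mb in the first 50 kb outside. A border is by construction the point where receptors stop, and the part of gene density in the anchor profile was not tested. An anchor lay within 100 kb outside at least one border in 38 of 50 clusters, and outside both in 15. For clusters of numbered Zfp genes built the same way the counts were 25 of 33 and 7 of 33.

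**Figure D2:**
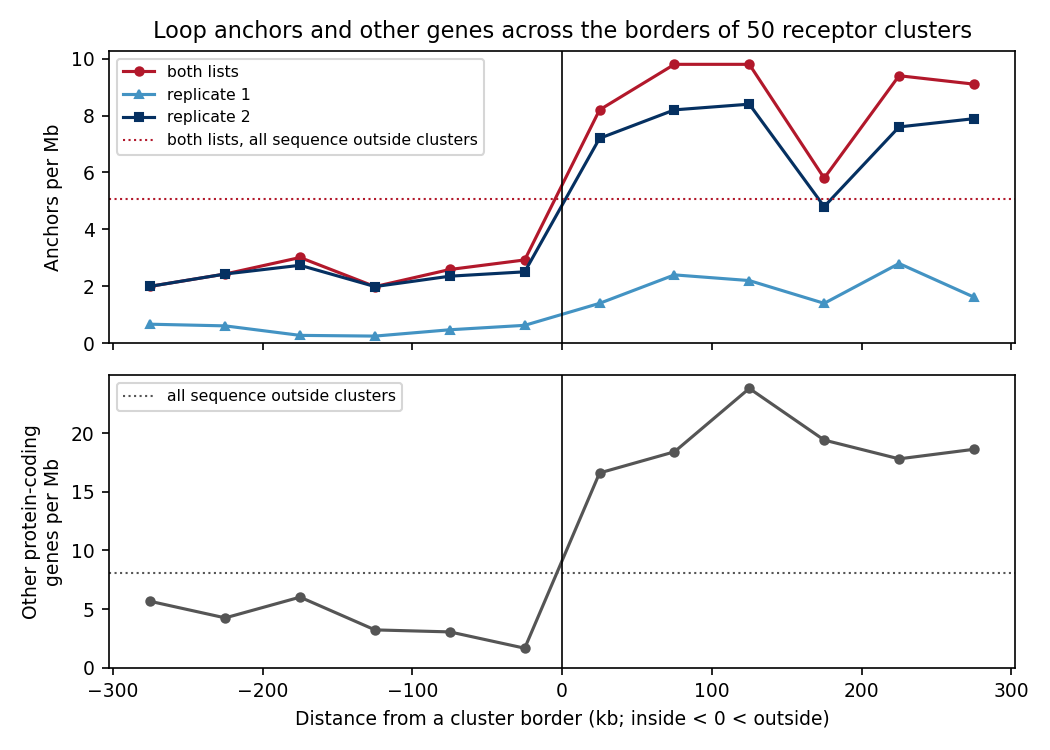
Loop anchors per Mb (upper panel) and other protein-coding genes per Mb (lower panel) in bins of 50 kb by distance from the border of 50 receptor clusters (x axis, kb, negative inside). Lines give both lists, replicate 1 and replicate 2, and dotted lines all sequence outside the clusters. Anchors step up at the border, with 2.93 per Mb in the last bin inside and 8.20 per Mb in the first bin outside, and other genes step up at the same place.

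Most receptors lay in long stretches without any anchor. Intervals of 1000 kb or more between neighbouring anchors held 888 receptors (61.1%), against 17.3% of other protein-coding genes. The 3995 kb from 86475000 to 90470000 on chromosome 2 held 164 receptors, Olfr228 to Olfr1274, and 2 other genes. On chromosome 7 a stretch of 3990 kb held 83 receptors, Vmn1r91 to Vmn1r179, and 19 other genes, and one of 5325 kb held 43 receptors, Vmn2r29 to Vmn1r84. On chromosome 9 a stretch of 2275 kb held 88 receptors, Olfr881 to Olfr986, and one of 5125 kb held 35, Olfr24 to Olfr18.

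The 37 receptors at an anchor fell into 18 of the 50 clusters and were spread between edges and interiors. The first or last gene of its cluster accounted for 9 of the 37 (24.3%), a place that 100 of all 1424 clustered receptors hold (7.02%). Put the other way, 9.0% of edge receptors (4.81 to 16.2%) and 2.1% of the 1324 interior receptors (1.47 to 3.04%) were at an anchor. The 9 edge genes were Olfr12, Olfr155, Vmn1r4, Olfr211, Vmn2r57, Olfr1358, Olfr1396, Olfr225 and Olfr90. For Olfr155, Olfr225 and Vmn1r4, replicate 2 listed a matching loop with a narrower anchor outside the cluster, 4.54, 5.78 and 13.9 kb away. Vmn2r57 was inside its 25 kb anchor by 267 bp. A 25 kb anchor that crosses a border can hold an edge gene's end. The part of anchor width in the edge share was not tested. The other 28 were interior. By distance, 17 of the 37 (45.9%) lay within 100 kb of a border, as did 322 of the 1424 (22.6%). The farthest from a border was Olfr631, 1438 kb inside the chromosome 7 cluster Olfr543 to Olfr692. Olfr1066 lay 1124 kb inside the largest cluster, which has 222 receptors and no other receptor at an anchor.

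**Figure D3:**
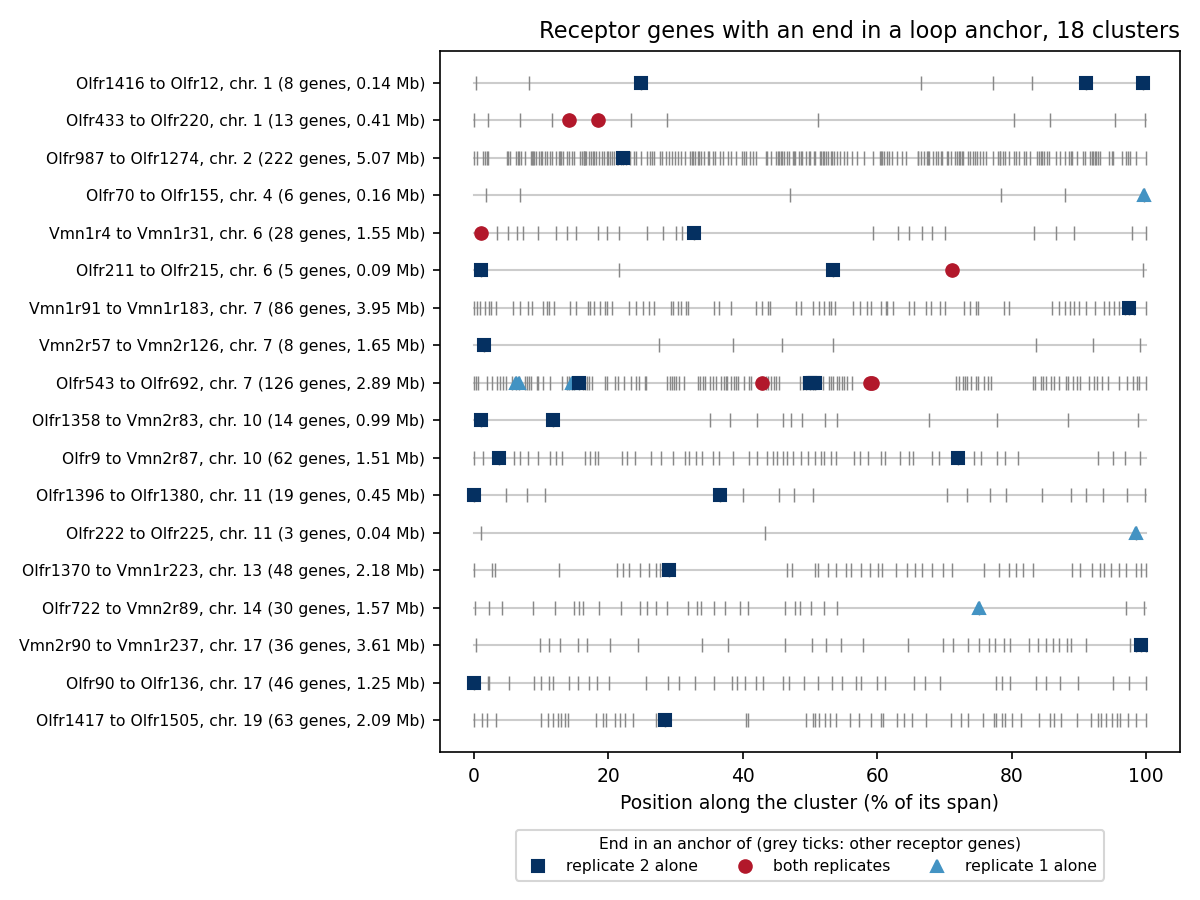
Positions along the cluster (x axis, percent of its span) of all receptor genes (grey ticks) and of the 37 with an end in an anchor (coloured), in the 18 clusters that hold one. Symbols tell replicate 1 alone, replicate 2 alone and both replicates apart. Edge genes such as Vmn1r4 and Olfr90 stand at an end of their line, and the chromosome 7 genes around Olfr243 stand near its middle.

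Loops with a receptor end at an anchor numbered 34, with 8 in replicate 1 and 26 in replicate 2. All 8 in replicate 1 were on 25 kb anchors, as were 83.9% of its loops in all. In replicate 2 the share was 73.1%, against 41.1% of all its loops, with the other 7 on 10 kb anchors and 0 on 5 kb anchors. Their median span was 188 kb in replicate 1 and 250 kb in replicate 2, and that of all loops was 150 kb in each. Receptor loops were picked by a gene end in an anchor, which a 25 kb bin can hold more easily than a narrower one. Loops with an end of any gene were not compared. The number tagged n, which the files do not define, had a median of 49 for receptor loops on 25 kb anchors in replicate 2, against 60 for all such loops there. In replicate 1 these medians were 29.5 and 31. The partner anchor held another receptor in 8 loops, ends of other genes alone in 10, and no protein-coding gene end in 16. These partner counts were not compared with those of all loops. A loop had a match in the other replicate if neither anchor midpoint differed by more than 20 kb. Of the 8 receptor loops in replicate 1, 6 had a match, against 80.6% of all its loops. Of the 26 in replicate 2, 1 had a match (3.85%), against 18.2% of all its loops. The cause of the lower share in replicate 2 was not tested.

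A single loop with receptors at an anchor had identical anchors in both replicates. It joined 173450001 to 173474999 on chromosome 1, with ends of Aim2, a sensor of cytosolic DNA, and of its interferon-inducible relative Ifi206, to 174100001 to 174124999, with Olfr427 and Olfr231. It spanned 650 kb, with n of 23 in replicate 1 and 59 in replicate 2. In replicate 2 Olfr427 was also joined over 250 kb, on 10 kb anchors, to Mndal, of the same interferon-inducible family as Ifi206. Both receptors lie inside the 13-gene cluster Olfr433 to Olfr220, which the Ifi gene Ifi205 borders on the left.

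For 5 more receptors the replicates shared the loop but not the gene's place in the anchor. These loops matched with both midpoints within 20 kb, and replicate 2 used narrower anchors that missed the receptor. Olfr155, the last gene of its cluster on chromosome 4, lay in a replicate 1 anchor joined over 125 kb to Hrct1 and Spaar, and 4.54 kb from the matching 10 kb anchor. Olfr214 on chromosome 6 was missed by 2.61 kb, Olfr225 on chromosome 11 by 5.78 kb, and Olfr750 on chromosome 14 by 0.312 kb. Vmn1r4 on chromosome 6 was missed by 13.9 kb. Its end at 56923914 lay in the same 25 kb anchor as an end of Nt5c3, a nucleotidase gene, and the matching 5 kb anchor ran from 56905001 to 56909999. Vmn1r4 and Olfr214 were still at an anchor in replicate 2 through other loops, among them one of 275 kb at Olfr214. Olfr750 shared its 25 kb anchor with the ribonuclease family genes Rnase11 and Rnase12, and the replicate 1 loop joined it over 275 kb to Ttc5 and Ccnb1ip1.

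Whether a receptor counts as being at an anchor turned on a short distance in some cases. The genes just inside a limit were Vmn2r57 by 267 bp, Olfr822 by 349 bp and Olfr427 by 407 bp. Just outside were Olfr554 by 249 bp and Olfr220 by 399 bp. Olfr687 spans an anchor with both ends beyond it. With ends allowed to lie up to 10 kb from an anchor the count was 74 receptors (5.09%), against 39.8% of other genes.

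The Olfr543 to Olfr692 cluster on chromosome 7, which holds the class I odorant receptors, gave 11 of the 37 genes. It has 126 receptors in 2893 kb, and 8.73% of them (4.94 to 15%) were at an anchor, against 2.15% of Olfr genes elsewhere (1.41 to 3.26%). Without this cluster the count over all receptors was 26. Both lists gave 7 genes here, and Olfr243, Olfr648 and Olfr649 were in both. In replicate 1 a loop of 475 kb joined Olfr243, at 103700001 to 103724999, to Olfr648 and Olfr649, at 104175001 to 104199999, with n of 21. In replicate 2 both anchor sites were used again, but with other partners. From Olfr243, at 103710001 to 103719999, loops of 90 and 160 kb ran to 103800001 to 103809999 and to 103870001 to 103879999, with n of 35 and 33. Neither partner anchor held a protein-coding gene end. From Olfr648 and Olfr649 a loop of 250 kb ran back to Olfr631, Olfr632 and Olfr633, at 103925001 to 103949999, with n of 60.

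Between these anchors lie the beta-globin genes, expressed in red cell precursors and embedded in the odorant receptor cluster. Hbb-bt, Hbb-bs, Hbb-bh2, Hbb-bh1 and Hbb-y run from 103812524 to 103853207, and none had an end in an anchor. All 5 were enclosed by the 160 kb loop of replicate 2, together with 6 receptors. All 5 were also enclosed by the 475 kb loop of replicate 1, together with 22 receptors, Olfr628 to Olfr646, and 4 more genes. The right anchor of the 90 kb loop ended 2.52 kb before Hbb-bt, and that loop enclosed 6 receptors and 0 other genes. The locus is known for CTCF-bound sites on either side of the globin genes, whose positions were not compared with these anchors.

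Farther left in the cluster the replicates differed. In replicate 1 a loop of 250 kb joined Olfr555 and Olfr556 to Olfr570 and Olfr571, with 11 receptors and Trim68, a gene of the tripartite motif family, between them. In replicate 2 a loop of 410 kb ran from 102510001 to 102519999, without a gene end, to Olfr572 at 102920001 to 102929999, with 22 receptors between. Right of the globin genes a replicate 2 loop of 100 kb joined the antiviral tripartite motif genes Trim6 and Trim12a, and it held 0 receptors. From there to the last receptor, replicate 2 listed 1 more loop with an anchor in the cluster and replicate 1 listed 0.

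**Figure D4:**
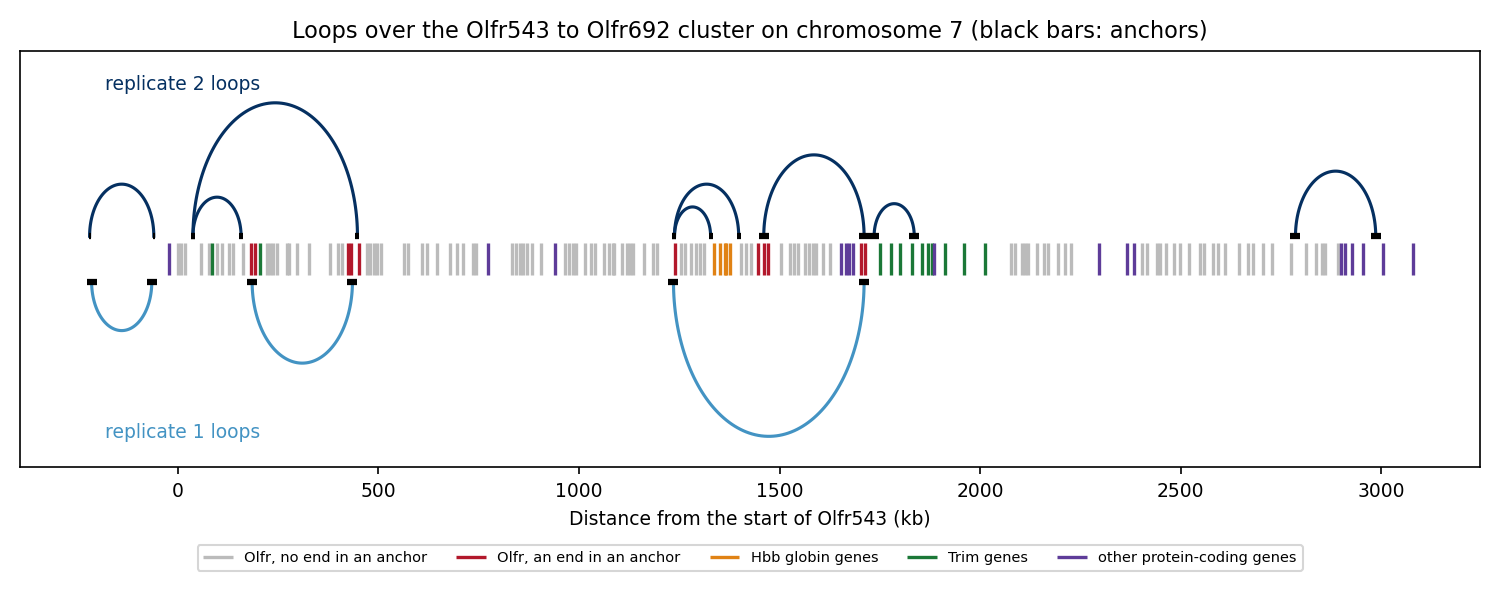
Loops over the chromosome 7 cluster by distance from the start of Olfr543 (x axis, kb), with replicate 2 arcs above and replicate 1 arcs below, and anchors as black bars. Ticks are genes, with receptors in grey, those at an anchor in red, and the Hbb genes in orange. The Hbb genes sit under the 160 kb arc of replicate 2 and the 475 kb arc of replicate 1, both of which start at Olfr243.

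The other receptor-to-receptor loops were all in replicate 2. On chromosome 1 Olfr1414 was joined over 100 kb to Olfr1410 and Olfr12 with n of 78, and the anchor of Olfr1410 and Olfr12 also had a 700 kb loop reaching left beyond the cluster. On chromosome 10 Olfr1358 and Olfr1357, neighbours at the left edge of their cluster, were joined over 100 kb with n of 68. On chromosome 11 Olfr1396, a left edge, was joined over 150 kb to an anchor with Olfr1393 and Mgat1, a glycosyltransferase gene, with n of 76. On chromosome 6 Olfr211 and Olfr213 were joined over 50 kb on 10 kb anchors. The longest joined Olfr765 to Olfr822 on chromosome 10 over 1050 kb, with n of 29, and enclosed 49 receptors and 1 other gene.

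Olfr1359 on chromosome 13 had 3 loops, all in replicate 2, the most of any receptor in a single list. Its anchor at 21700001 to 21724999 also held ends of the histone genes H2ac13, H2bc13, H2bc14 and H3c10. A loop of 325 kb ran to 22025001 to 22049999, with ends of H2ac12, H2bc12, H4c9, H2ac11 and H2bc11. Another, of 1725 kb, ran to 23425001 to 23449999, and the third, of 550 kb, ran left to 21150001 to 21174999. Neither of these partner anchors held a gene end. The cluster around it, Olfr1370 to Vmn1r223, holds 48 receptors, all of them enclosed by a loop. The 36 from Vmn1r188 to Vmn1r223 were enclosed by 4 loops in replicate 2 and by a loop of 1475 kb in replicate 1, which spans 22025001 to 23524999.

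The remaining receptor loops were in replicate 2, with partner anchors that held other genes or none. Vmn2r57, the 1 Vmn2r gene at an anchor, was joined over 100 kb to AW146154 and over 250 kb to Zfp788 on chromosome 7, and AI987944 shared its anchor. Vmn1r180 was joined over 325 kb to Zfp93 and Zfp61, zinc finger genes beyond the right border of its 86-gene cluster. Vmn1r20 and Vmn1r4 on chromosome 6 were joined over 125 and 650 kb to the same site, 57550001 to 57574999, which held no gene end. Vmn1r4 was also joined over 200 kb to Lsm5 and Avl9. Vmn1r236 and Olfr90, near or at cluster borders on chromosome 17, had loops of 130 and 120 kb on 10 kb anchors. Olfr1441 on chromosome 19 had a loop of 325 kb, and Olfr1066 on chromosome 2 one of 725 kb that enclosed 43 receptors and 0 other genes.

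Over the joined medium-setting lists the share of receptors enclosed by a loop was near that of all genes, while at the high setting and with shorter loops alone it was below that of other genes. Over both medium lists 363 of 1454 (25%, 22.8 to 27.3%) lay between the anchors of a loop, against 27.4% of all genes, so the share is close to the background. Replicate 1 enclosed 100 (6.88%, against 6.04% of all genes) and replicate 2 enclosed 357 (24.6%, against 27.1%). The loops were longer: the smallest loop around an enclosed receptor had a median span of 550 kb, with quartiles of 250 and 1050 kb. Around other enclosed genes it was 225 kb, with quartiles of 125 and 380 kb. Loops of 1000 kb or more were the only ones around 96 of the 363. With loops under 1000 kb alone the enclosed share was 18.4% of receptors (16.5 to 20.4%), against 26.5% of other genes. At the high loop setting it was 7.02% of receptors (5.81 to 8.44%), against 14.4% of other genes. Other genes inside the receptor clusters were enclosed in 115 of 233 cases (49.4%, 43.0 to 55.7%). By family 276 Olfr genes (25%, 22.6 to 27.7%), 71 Vmn1r genes (31.0%, 25.4 to 37.3%) and 16 Vmn2r genes (13.1%, 8.24 to 20.2%) were enclosed. Of the 71 Vmn1r genes, 36 were Vmn1r188 to Vmn1r223 on chromosome 13, inside loops of 1400 to 1725 kb. Another 17 were Vmn1r4 to Vmn1r20 on chromosome 6. Loops found in both replicates enclosed 33 receptors (2.27%), against 5.50% of all genes.

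Enclosure was uneven between clusters. In 24 of the 50 clusters 0 receptors were enclosed, and in 7 all were. Among the 10 largest, all 48 receptors of Olfr1370 to Vmn1r223 and 49 of 62 in Olfr9 to Vmn2r87 were enclosed. The counts were 49 of 222 in Olfr987 to Olfr1274, 49 of 126 in Olfr543 to Olfr692 and 22 of 63 in Olfr1417 to Olfr1505. They were 7 of 95 in Olfr160 to Olfr986, 5 of 46 in Olfr90 to Olfr136, 5 of 42 in Olfr467 to Olfr519 and 2 of 86 in Vmn1r91 to Vmn1r183. In Olfr1275 to Olfr1318 the count was 0 of 37.

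A loop ran over a whole cluster in 5 of the 50, all in replicate 2. Olfr62 to Olfr1328 on chromosome 4, with 13 receptors, lay in a loop of 550 kb from an anchor at Ebna1bp2, a ribosome biogenesis gene, to one at Ermap, an erythroid membrane protein gene, and Svbp. Vmn1r32 to Vmn1r39 on chromosome 6, with 8 receptors, lay in loops of 425 and 650 kb that both started at Mad2l1, a spindle checkpoint gene. Olfr433 to Olfr220 lay in a loop of 1000 kb from the anchor at Aim2 and Ifi206. Olfr16 to Olfr418 on chromosome 1 and Vmn2r1 to Vmn2r7 on chromosome 3 lay in loops of 975 and 1275 kb. Among smaller groups, the pair Olfr461 and Olfr460 on chromosome 6 lay in 5 listed loops. Of these, 4 matched each other between replicates, at 100 and 200 kb in replicate 1 and 115 and 210 kb in replicate 2. The other, of 350 kb, was in replicate 2 alone. In replicate 1 the matched loops started at the anchor of Ssbp1, Tas2r137 and Tas2r108. They ran over 100 kb to Clec5a, a myeloid lectin gene, and over 200 kb to a site without a gene end. At the left edge of a chromosome 9 cluster, 7 receptors, Olfr160 to Olfr878, lay in a 250 kb loop with the same anchors in both replicates and n of 21 and 63.

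**Figure D5:**
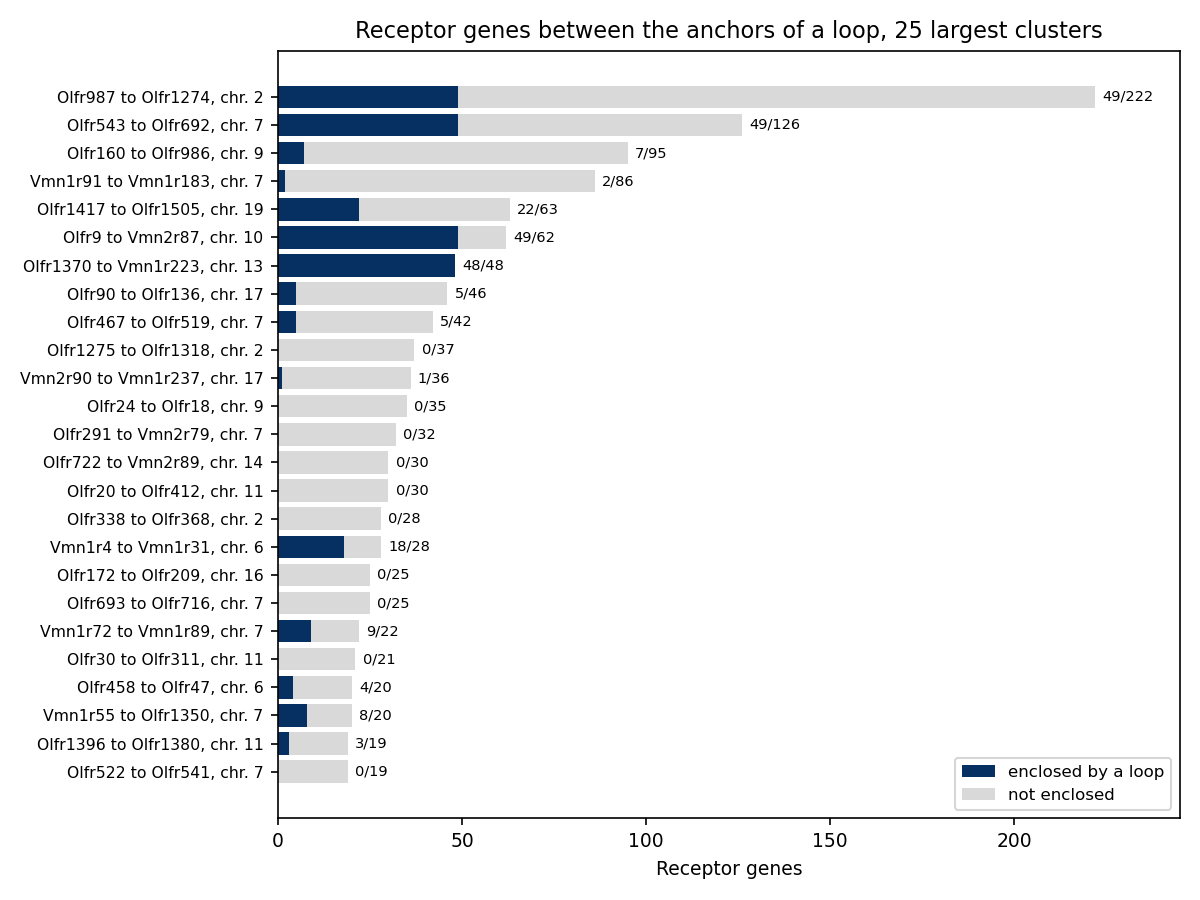
Number of receptor genes (x axis) in the 25 largest clusters, split into those enclosed by a loop of either list (dark) and those not (light), with both counts beside each bar. The bar of Olfr1370 to Vmn1r223 is dark throughout (48 of 48), and that of Olfr1275 to Olfr1318 is light throughout (0 of 37).

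Domains held few receptors. Of 1454, 14 lay wholly inside a domain (0.963%, 0.574 to 1.61%), against 4.10% of all genes. Numbered Zfp genes had a like share, 4 of 388 (1.03%, 0.402 to 2.62%), and other genes inside the receptor clusters gave 15 of 233 (6.44%, 3.94 to 10.3%). The 14 lay in 4 domains, all from replicate 2. A domain of 440 kb on chromosome 7, from 106380001 to 106820000, held Olfr693, Olfr694, Olfr695, Olfr697, Olfr698, Olfr699 and Olfr700, the left end of a 25-gene cluster. One of 320 kb on chromosome 10 held Vmn2r84, Vmn2r85, Vmn2r86 and Vmn2r87 with Neurod4 and Tespa1. One of 395 kb on chromosome 6 held Olfr461 and Olfr460 with 7 other genes, among them Tas2r137, Tas2r108 and Tas2r138. The fourth, of 315 kb from 50775001 to 51090000 on chromosome 14, held Olfr750 and 13 other genes. Its left end was also the left end of the replicate 1 loop that ends at Olfr750.

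The windows at receptor gene starts differed in base composition from those of other genes. RefSeq windows of 300 bases were at hand for 1260 receptor genes, 32 of them at an anchor, and for 15192 others. Median GC content was 35.7% for receptors and 57.7% for others, and the median number of CpG pairs was 1 and 16. Receptors at an anchor had a median GC content of 40.8% (quartiles 34.6 and 44.2%), and receptors not at one 35.7% (quartiles 32.3 and 39.3%). Among other genes those at an anchor had 60.0% and those not at one 57.0%. Since many receptor models begin at the coding part, these windows may not hold the promoter.

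Short motifs were searched on both strands of these windows. TAATTA was found in 16.7% of receptor windows, against 4.62% of all windows, and in 4 of the 32 at an anchor, among them that of Olfr649 printed above. TATAAA was found in 39.7%, against 13.5% of all windows. The core that CTCF binds, searched as CCA, 2 free bases, AG, 2 free bases and GGC, was in 4 receptor windows (0.317%), against 2.40% of all windows, and in 0 of the 32. The palindrome that EBF factors bind, searched as TCCC, 2 free bases and GGGA, was in 5 (0.397%), against 0.954%, and also in 0 of the 32. TAATTA and TATAAA hold only A and T, and the receptor windows are rich in both. The fixed letters of the CTCF and EBF searches are mostly G and C, of which receptor windows hold less than other windows. With 32 windows and background shares this low, 0 matches carry little information. TAATTA and the EBF palindrome read the same on both strands, and each match was counted once. No match says only that these letters are not in this window.

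Genes of the receptors' signalling pathway and regulators were also placed on the map. Of 15 signalling genes 3 were at an anchor. In replicate 2 these were Adcy3, the adenylyl cyclase of odour transduction, with a 100 kb loop, and Cngb1, a channel subunit of the same cascade, with a 50 kb loop. The third was Gucy2d, a guanylyl cyclase of a subset of olfactory neurons, with a 100 kb loop of replicate 1. That loop had a match in replicate 2, where no anchor held an end of Gucy2d. Gnal, which encodes the olfactory G protein, spans an anchor with both ends beyond it. Omp, the olfactory marker protein gene, had no end in an anchor and lay 135 kb from the nearest. Of 12 regulators of receptor choice 3 were at an anchor, all in replicate 2. They were Lhx2, with loops of 175 and 425 kb, Ebf1, with a 425 kb loop, and Atf5, a stress-response factor gene, with a 60 kb loop. Lhx2 and Ebf1 also act in blood cells. Ldb1, Ebf3 and Kdm1a, a histone demethylase gene, had no end in an anchor. Both counts are near the background of 23.1%, but lists of 15 and 12 genes give such shares little precision.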

How the data were processed

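Hi-C was measured in 2 samples of HPC5 cells, fixed in 2% formaldehyde and prepared with an Arima kit, per the labels' protocols. HiC-Pro 2.11.1 and the build mm10 are listed, per the submitters' processing notes, while the callers of loops and domains were not given in the sources used here. The deposited files list loop anchors and domains in base pairs, with a whole-number tag n that the authors left undefined, so n was used as a description only. Gene positions were read from RefSeq's GRCm38.p6 annotation, which has the mm10 coordinates, with unplaced scaffolds dropped. The table of gene positions has no strand column, so both gene ends were used, while the separate RefSeq table of start windows gives the strand of each window.

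Loops of both medium-setting lists were joined. Loops of different replicates matched, and were called shared, if neither anchor midpoint differed by more than 20 kb. Clusters were receptor genes joined over gaps of up to 500 kb, counted from 3 genes. Named were all receptors at an anchor, genes in the same or partner anchors, the 10 largest clusters and receptors in a domain. Of the genes next to clusters with a receptor at an anchor, only some were named. Further genes, named as examples of enclosing loops and long anchor-free stretches, were chosen after their values were seen. Members and lists were chosen with earlier results of these data known. No test was run, because there is 1 group and the anchor share chose the set. Shares carry 95% Wilson intervals. Counting was tested on simulated data, in Python 3.11.15 with pandas 2.3.3 and numpy 2.4.6. Alternatives were the high loop setting, shared loops, each replicate alone, other distance limits, other cluster gaps and other background genes. Chromosomes X and Y were left out.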

Additional observations from a re-analysis of the deposited data

How the results depend on the processing

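The share of receptors at an anchor, divided by that of other genes, was 0.103. It was 0.0456 at the high loop setting, 0.075 over shared loops and 0.167 against other clustered family genes, and 0.0953 to 0.132 with 1 replicate left out. The planned ratio with each cluster counted once was not run, since other genes have no matching clusters, and 18 of 50 clusters held a receptor at an anchor. The enclosed share of 25% (other genes 27.6%) was 7.02% at the high setting (14.4%), 2.27% over shared loops (5.74%) and 18.4% with loops under 1000 kb (26.5%). With 1 replicate left out it was 6.88 to 24.6% (5.98 to 27.3%). The share in a domain was 0 without replicate 2 and 0.963% without replicate 1. Edge genes numbered 9 of 37 at an anchor, 2 of 7 at the high setting, 3 of 7 over shared loops, and 3 to 7 with 1 replicate left out. Clusters with an anchor near a border numbered 38, 16 over shared loops, and 17 to 38 with 1 replicate left out. Anchors per Mb inside clusters were 2.20, 0.782 in receptor-only stretches, and 0.384 to 2.01 with 1 replicate left out. The alternatives for receptor-only stretches, for the density without each replicate and for leaving out the chromosome 7 cluster, which gave 0.0795, were chosen after seeing the data. Replicate 1 listed 1249 loops and 3 domains, against 5590 loops and 332 domains in replicate 2. The causes of the shifts with 1 replicate left out were not tested. No paired analysis was possible because there is 1 group. Depth is unknown, so a receptor without an anchor has none listed and may still form a loop.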
